A study of Rattus norvegicus with 172 samples.

Results

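The urea cycle turns ammonia, which is toxic, into urea, and it runs in the hepatocytes of the liver. Nags makes N-acetylglutamate, the cofactor without which carbamoyl phosphate synthetase (Cps1) does not work. Cps1 and ornithine transcarbamylase (Otc) act in the mitochondrion, argininosuccinate synthetase (Ass1), argininosuccinate lyase (Asl) and arginase (Arg1) act in the cytosol, and the carrier Slc25a15 returns ornithine to the mitochondrion. The liver glutaminase Gls2, histidine ammonia lyase (Hal) and glutamate dehydrogenase (Glud1) release ammonia from amino acids. Hepatocytes near the portal vein hold most of the cycle's enzymes, and those around the central vein catch leftover ammonia as glutamine.

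These 10 genes were followed in liver RNA of 70 male Fischer 344 rats given furan or 3-methylfuran for 90 days. They were chosen by symbol, for their role in nitrogen handling, from the 32883 genes of each count table, and all 10 were found in both tables and passed the filter on low counts. Furan, a ring compound that forms when food is heated, and its methylated derivative 3-methylfuran were given at several doses. In the furan experiment 8, 8, 7 and 7 rats received 0.03, 0.12, 0.5 and 2.0 mg/kg body weight per day, with 8 control rats at 0 mg/kg. In the 3-methylfuran experiment 8 rats each received 0.02, 0.075 and 1.0 mg/kg body weight per day, with 8 control rats of their own at 0 mg/kg. Values are CPM, read counts scaled to library size and TMM factor, and a gene was called higher or lower at an edgeR adjusted p under 0.05 over all genes of a comparison. CPM is not corrected for gene length, so levels are compared between groups and not between genes. Library kit and experiment changed together with the compound, and the highest doses differ, so the compounds are set side by side without a test between them. Compound and kit cannot be told apart.

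Depth was 11.4 to 27.7 M counts per rat in the furan experiment and 11.1 to 50.05 M in the 3-methylfuran experiment. The 3-methylfuran 0.075 mg/kg group was the deepest, with a median of 24.2 M counts against 14.2 M in its controls. Each of the 10 genes had at least 913 counts in every rat. All 14 measured hepatocyte markers were detected in each of the 9 groups. The labels do not say whether rats of a group shared cages or litters, so p-values measure the spread between these rats.

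At the highest furan dose, 2.0 mg/kg, 8 of the 10 genes were lower than in controls and 0 were higher. Otc, Gls2 and Ass1 fell most, and Hal and Glud1 were not called. In whole liver RNA, fewer hepatocytes and less RNA per hepatocyte cannot be told apart. Over all 12727 genes tested in that comparison 46.5% were called and 22.5% were called lower, and the median log2 fold change was -0.36 over the 10 genes and 0.02 over all genes. At the highest 3-methylfuran dose, 1.0 mg/kg, 5 of the 10 genes were lower and 0 were higher, in a comparison of 11930 genes of which 43.6% were called and 22.5% were called lower. The median log2 fold change there was -0.19 over the 10 genes and -0.0014 over all genes. Nags, Otc, Ass1, Arg1 and Slc25a15 were called lower in both comparisons. The TMM factors, by which CPM is divided, were 1.0212 to 1.4049 at furan 2.0 mg/kg and 0.8938 to 0.9635 in its controls. At 3-methylfuran 1.0 mg/kg they were 1.046 to 1.226, and 0.919 to 0.974 in its controls. The falls are therefore relative to the genes that set the scaling. Summed over the 10 genes, mean CPM was 7914 at furan 2.0 mg/kg and 10127 in controls. At 3-methylfuran 1.0 mg/kg it was 7922, beside 9497 in controls. The TMM factors differ between dosed and control rats by about as much in the other direction. Undoing them leaves the summed share of the 10 genes in the counted reads about level in both experiments. That share was not tested, nor was the share of each gene alone. At furan 2.0 mg/kg 0 of the 10 genes separated fully from controls, while 5.57% of all genes had every dosed rat below every control.

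**Figure D1:**
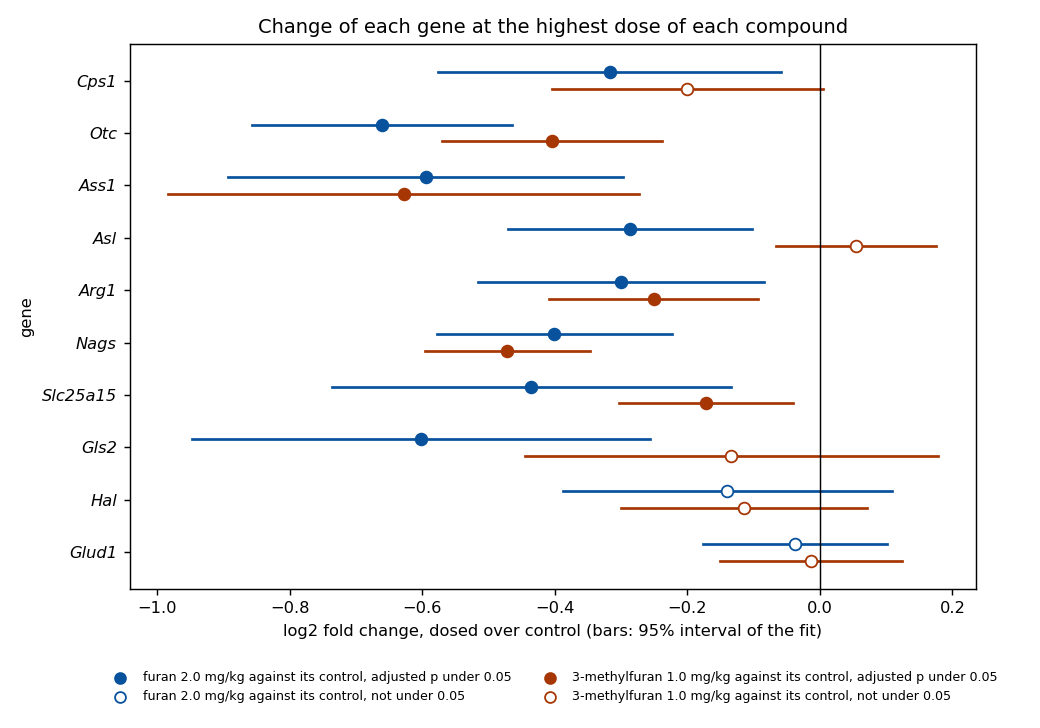
Log2 fold change of each gene (dosed over control, with the 95% interval of the fit as a bar) at furan 2.0 mg/kg (blue, upper) and 3-methylfuran 1.0 mg/kg (brown, lower). Filled points have an adjusted p under 0.05; 8 are filled for furan and 5 for 3-methylfuran, and Glud1 lies at -0.04 and -0.01.

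Nags, which makes the cofactor of Cps1, was called at a lower dose than any other of the 10 genes. It had 69.3 to 85.4 CPM (median 75.8) in rats at 3-methylfuran 1.0 mg/kg, against 87.8 to 124 CPM (median 104) in their controls. All 8 dosed rats lay below the lowest control, as for 6.08% of all genes tested there. The log2 fold change was -0.47 ± 0.06 (SE, adjusted p = 1.2e-07). At 3-methylfuran 0.075 mg/kg Nags had 76.0 to 95.9 CPM (median 82.7), and the log2 fold change against the same controls was -0.32 ± 0.06 (adjusted p = 0.0033). The groups overlapped at that dose, with 6 of 8 dosed rats below the lowest control. Nags was the only one of the 10 genes called at 0.075 mg/kg, where 1.37% of all genes were called. At 3-methylfuran 0.02 mg/kg its log2 difference from control was -0.14 ± 0.06 (adjusted p = 0.64). The means over the series 0, 0.02, 0.075 and 1.0 mg/kg were 105, 95.4, 84.2 and 75.7 CPM. The step between 1.0 and 0.075 mg/kg was -0.15 on the log2 scale (adjusted p = 0.051), just short of a call.

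With furan, Nags had 63.2 to 113 CPM (median 70.96) at 2.0 mg/kg, against 84.2 to 126 CPM (median 101) in controls. Of the 7 dosed rats, 6 lay below the lowest control, and rat ME086_L at 113 CPM lay inside the control range. On the log2 scale the change was -0.40 ± 0.09 (adjusted p = 0.00027). At 0.03, 0.12 and 0.5 mg/kg the means were 93.3, 91.8 and 91.3 CPM, beside 103 CPM in controls, and none of these doses was called for Nags.

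Cps1, which commits ammonia to the cycle, changed less. It had 2388 to 3986 CPM (median 3110) at furan 2.0 mg/kg, against 2978 to 5538 CPM (median 3574) in controls. The ranges overlapped widely, and 6 of 7 dosed rats lay below the control mean. The fitted log2 fold change was -0.32 ± 0.13 (adjusted p = 0.04). This call was kept in 6 of 15 refits that each left out 1 rat: it was lost without the control rats MC007_L, MC009_L, MC011_L or MC012_L and without the dosed rats ME081_L, ME082_L, ME083_L, ME085_L or ME092_L, with adjusted p between 0.051 and 0.13. At 3-methylfuran 1.0 mg/kg Cps1 had 2701 to 3672 CPM (median 3006), against 3007 to 4348 CPM (median 3419) in controls, and the log2 difference of -0.20 ± 0.10 was not called (adjusted p = 0.11).

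Otc, which makes citrulline from carbamoyl phosphate and ornithine, fell at both highest doses. It had 222 to 448 CPM (median 293) at furan 2.0 mg/kg, against 419 to 550.8 CPM (median 501) in controls. Of the 7 dosed rats, 6 lay below the lowest control, the exception again being rat ME086_L. This amounted to a log2 fold change of -0.66 ± 0.10 (adjusted p = 8.1e-07), the largest fall among the 10 genes at that dose. At 3-methylfuran 1.0 mg/kg Otc had 293 to 428 CPM (median 362), against 419 to 519 CPM (median 500) in controls. Here 6 of 8 dosed rats lay below the lowest control, and the log2 fold change was -0.40 ± 0.08 (adjusted p = 0.00012). At furan 0.5 mg/kg (mean 454 CPM) and 3-methylfuran 0.075 mg/kg (mean 471 CPM) Otc was not called, beside control means of 494 and 480 CPM in the 2 experiments.

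Ass1, which joins citrulline to aspartate, showed the largest fall of the 10 genes at 3-methylfuran 1.0 mg/kg. It had 954 to 1719 CPM (median 1207) there, against 1402 to 3074 CPM (median 1817) in controls, and 6 of 8 dosed rats lay below the lowest control. The log2 fold change was -0.63 ± 0.17 (adjusted p = 0.004). With furan 2.0 mg/kg Ass1 had 970 to 1972 CPM (median 1309), against 1582 to 2990 CPM (median 2013) in controls. The rats ME086_L and ME089_L lay within the control range and the other 5 below it. The fitted log2 fold change was -0.59 ± 0.15 (adjusted p = 0.0011).

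Asl, the enzyme after Ass1 that releases arginine and fumarate, was called with furan and not with 3-methylfuran. It had 189 to 280 CPM (median 209) at furan 2.0 mg/kg, against 221 to 321 CPM (median 271) in controls, with 5 of 7 dosed rats below the lowest control. This amounted to a log2 fold change of -0.29 ± 0.09 (adjusted p = 0.0092). At 3-methylfuran 1.0 mg/kg it had 216 to 300 CPM (median 242), against 215 to 256 CPM (median 233) in controls, and the 95% interval of the log2 difference ran from -0.07 to 0.18. Whether the compounds differ in Asl was not tested.

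Arg1, which splits arginine into urea and ornithine, had 725 to 1164 CPM (median 822) at furan 2.0 mg/kg, against 879 to 1293 CPM (median 1165) in controls. The groups overlapped, with 4 of 7 dosed rats below the lowest control. On the log2 scale the change was -0.30 ± 0.11 (adjusted p = 0.02), and the call was lost without rat ME081_L, ME082_L, ME083_L or ME085_L (adjusted p 0.059 to 0.08). At 3-methylfuran 1.0 mg/kg Arg1 had 845 to 1192 CPM (median 962), against 967 to 1276 CPM (median 1207) in controls. There 7 of 8 dosed rats lay below the control mean, and the log2 fold change was -0.25 ± 0.08 (adjusted p = 0.0088).

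Slc25a15, the mitochondrial ornithine carrier, had 266 to 422 CPM (median 333) at furan 2.0 mg/kg, against 323 to 591.1 CPM (median 433) in controls. All 7 dosed rats lay below the control mean, though 4 lay above the lowest control. The log2 fold change was -0.44 ± 0.15 (adjusted p = 0.015, and 0.053 without rat ME085_L). Its level at furan 0.5 mg/kg was 404 to 888 CPM (median 499), with a log2 difference from control of 0.38 ± 0.15 that was not called (adjusted p = 0.16). In rats at 3-methylfuran 1.0 mg/kg Slc25a15 had 274 to 349 CPM (median 305), against 311 to 390 CPM (median 347) in controls, and the log2 fold change was -0.17 ± 0.06 (adjusted p = 0.029). That call was lost without control rat MC502L or MC506L and without dosed rat ME583L, ME584L, ME586L or ME591L (adjusted p 0.052 to 0.088).

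**Figure D2:**
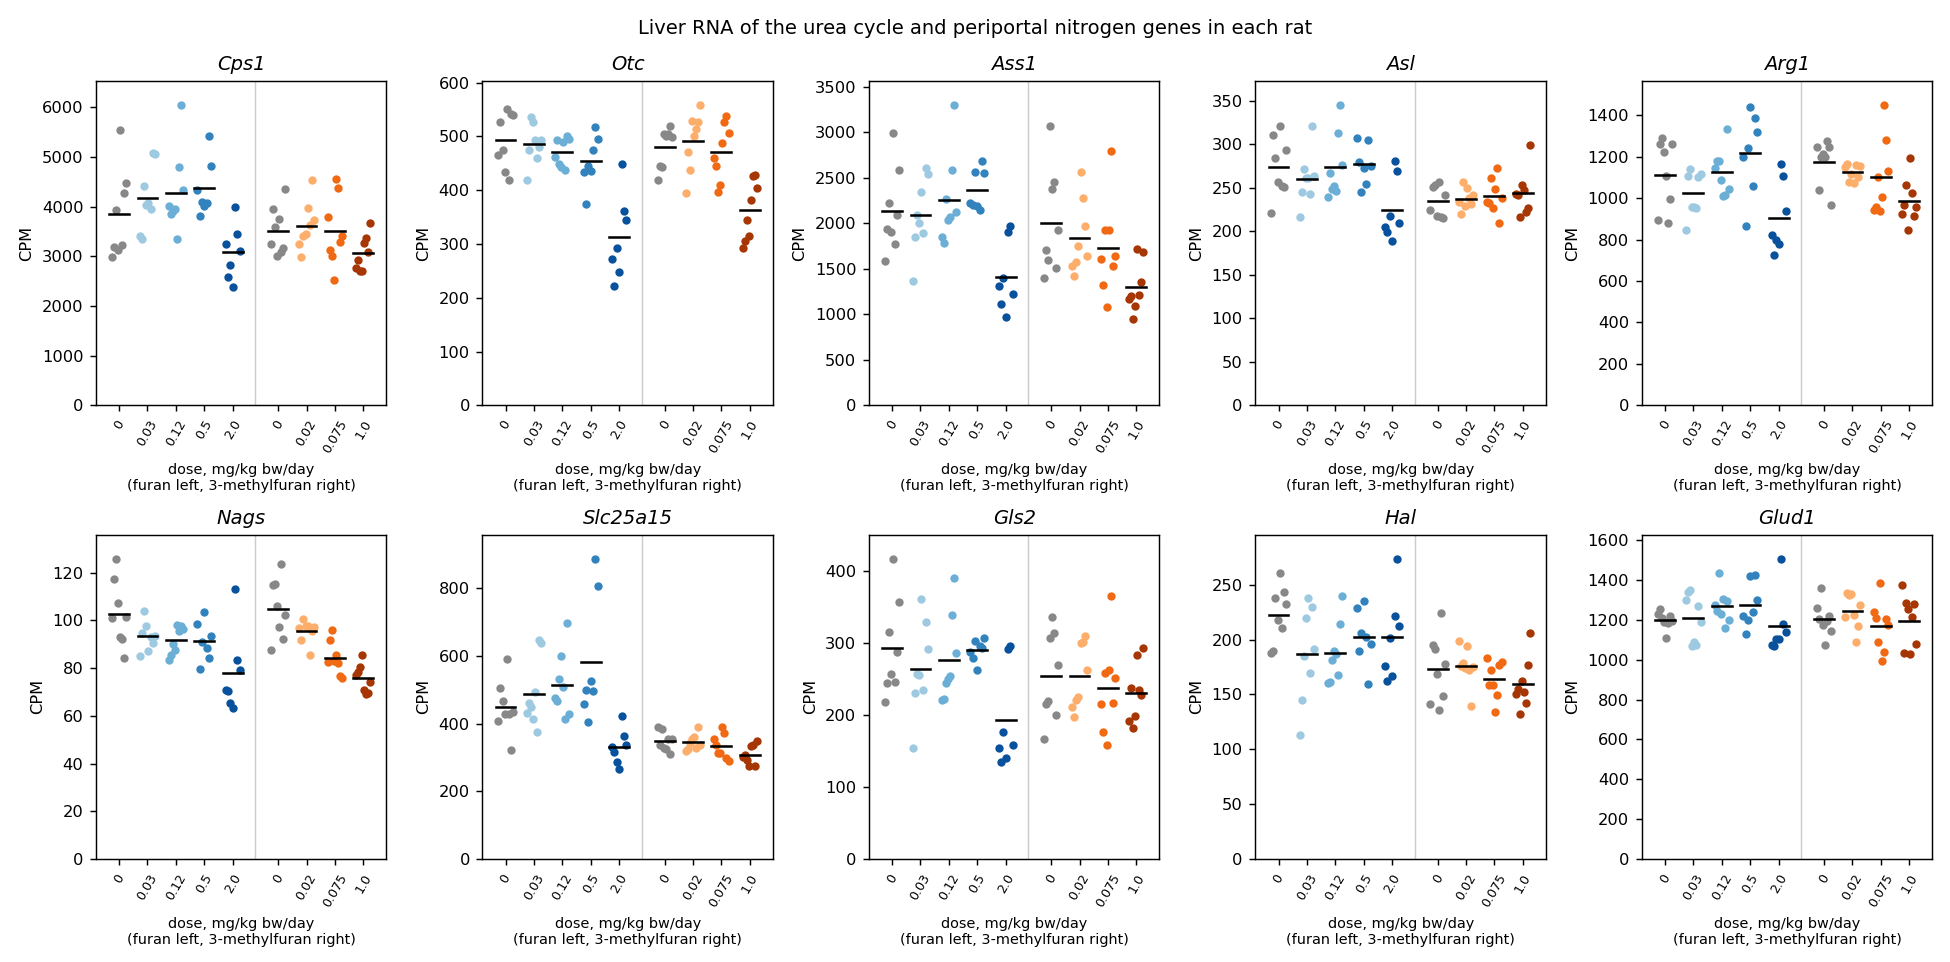
CPM of each gene in every rat (points) with the group mean (bar), by dose in mg/kg body weight per day; the furan experiment is left of the grey line and the 3-methylfuran experiment right of it, each with its control at 0. Otc and Ass1 drop at the highest dose of both compounds, Nags steps down over the 3-methylfuran doses to a mean of 75.7 CPM, and Glud1 stays between group means of 1168 and 1277 CPM.

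Gls2, the periportal glutaminase, frees ammonia close to Cps1 in the mitochondrion. It had 134 to 296 CPM (median 159) at furan 2.0 mg/kg, against 218 to 418 CPM (median 273) in controls, and the log2 fold change was -0.60 ± 0.17 (adjusted p = 0.0038). The 7 dosed rats differed: ME086_L and ME089_L were near the control mean, and the other 5 lay below the lowest control. In rats at 3-methylfuran 1.0 mg/kg Gls2 had 182 to 294 CPM (median 232), against 167 to 336 CPM (median 245) in controls, which was not called (log2 difference -0.13, 95% interval -0.45 to 0.18).

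Hal, the first step of histidine breakdown, was not called at any dose. It had 163 to 274 CPM (median 202) at furan 2.0 mg/kg, against 188 to 260 CPM (median 225) in controls, and 133 to 206 CPM (median 154) at 3-methylfuran 1.0 mg/kg, against 136 to 224 CPM (median 173) in controls. The later steps of the same path were called in both comparisons, in opposite directions. Uroc1 (urocanase, the step after Hal) fell by 0.76 on the log2 scale with furan and by 0.76 with 3-methylfuran (adjusted p = 2.0e-07 and 4.5e-11). Amdhd1 (imidazolonepropionase, which follows Uroc1) rose by 0.57 and 0.76 (adjusted p = 0.01 and 0.0028), and Ftcd (formiminotransferase cyclodeaminase, the last step) fell by 0.52 and 0.50 (adjusted p = 6.1e-05 and 2.9e-06). Amdhd1 had 35.9 to 57.7 CPM at 3-methylfuran 1.0 mg/kg, against 9.38 to 34.0 CPM in controls, with no overlap. The share of all genes separated upward in this way was not counted.

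Glud1, which interconverts glutamate and ammonia in the mitochondrion, was not called at any dose, with group means between 1168 and 1277 CPM over the 9 groups. It had 1068 to 1507 CPM (median 1106) at furan 2.0 mg/kg, against 1110 to 1257 CPM (median 1201) in controls, and 1027 to 1375 CPM (median 1235) at 3-methylfuran 1.0 mg/kg, against 1076 to 1362 CPM (median 1202) in controls. The log2 differences were -0.04 (95% interval -0.18 to 0.10) and -0.01 (-0.15 to 0.12), and their sign turned under upper quartile scaling (0.02 and 0.03).

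Promoter windows of 300 bases, from RefSeq on the rat build GRCr8, were available for 8 of the 10 genes, Arg1 and Hal being absent from that table. The windows are shown for Ass1 and Nags, called lower at both highest doses, for Cps1, the entry to the cycle, and for Glud1, which was not called, so that genes with different responses can be read side by side. Capitals mark exact matches on either strand to TATAAA, the core promoter element, to GGGCGG, an element of Sp1-type factors, or to CAAAGTCCA, an HNF4-type element. The elements CCAAT (of NF-Y), TTGCNNAA (C/EBP-type) and TGACGTCA (the cAMP response element) were searched too and had no match in these 4 windows. The windows lie at chr3:35149480-35149779, plus strand (Ass1), chr10:87598266-87598565, plus strand (Nags), chr9:76063613-76063912, plus strand (Cps1) and chr16:9646319-9646618, plus strand (Glud1).
Ass1: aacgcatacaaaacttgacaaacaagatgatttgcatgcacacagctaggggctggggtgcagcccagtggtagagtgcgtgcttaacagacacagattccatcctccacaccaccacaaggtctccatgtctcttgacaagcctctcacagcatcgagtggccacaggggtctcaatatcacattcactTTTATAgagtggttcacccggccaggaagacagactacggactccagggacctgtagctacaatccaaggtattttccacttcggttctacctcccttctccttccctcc
Nags: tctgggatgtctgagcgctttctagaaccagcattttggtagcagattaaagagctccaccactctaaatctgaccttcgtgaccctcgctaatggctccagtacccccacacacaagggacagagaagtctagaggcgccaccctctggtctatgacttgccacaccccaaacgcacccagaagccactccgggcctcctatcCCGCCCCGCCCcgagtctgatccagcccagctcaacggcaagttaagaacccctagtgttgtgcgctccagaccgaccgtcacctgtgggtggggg
Cps1: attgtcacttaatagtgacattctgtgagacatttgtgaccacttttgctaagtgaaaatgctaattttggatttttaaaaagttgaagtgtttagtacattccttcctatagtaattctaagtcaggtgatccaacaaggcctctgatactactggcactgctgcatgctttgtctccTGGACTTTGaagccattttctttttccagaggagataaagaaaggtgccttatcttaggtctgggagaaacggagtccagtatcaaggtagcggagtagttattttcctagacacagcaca
Glud1: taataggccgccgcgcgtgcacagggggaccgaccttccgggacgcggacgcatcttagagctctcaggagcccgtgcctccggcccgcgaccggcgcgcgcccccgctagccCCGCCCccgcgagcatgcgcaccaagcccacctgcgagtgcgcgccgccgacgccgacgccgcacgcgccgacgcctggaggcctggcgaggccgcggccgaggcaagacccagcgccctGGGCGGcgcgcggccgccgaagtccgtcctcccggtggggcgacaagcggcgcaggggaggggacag

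The Ass1 window held TATAAA on the minus strand at position -60 from its annotated start. The Nags window held overlapping GGGCGG matches on the minus strand at -46 and -41. The Glud1 window held GGGCGG at -137 on the minus strand and at -17 on the plus strand. The Cps1 window held CAAAGTCCA on the minus strand at -71. The window of Otc, which is not shown, held no match to any of the elements searched. Of all 33469 rat promoter windows of this length, 14.2% held TATAAA, 33.1% held GGGCGG, 37.5% held CCAAT, 10.6% held TTGCNNAA, 0.391% held CAAAGTCCA and 1.83% held TGACGTCA. A match describes these letters only, and no binding was measured here.

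Below the highest doses few of the 10 genes were called. At furan 0.03, 0.12 and 0.5 mg/kg 0 of the 10 were called by edgeR, DESeq2 or limma voom, among shares of 0.0707%, 1.94% and 3.16% of all genes called by edgeR. At each of these doses 1 gene had an unadjusted p under 0.05: Hal at 0.03 mg/kg (log2 difference -0.26) and 0.12 mg/kg (-0.24), and Slc25a15 at 0.5 mg/kg (0.38). Over all genes 9.13%, 13.9% and 17.1% had such a p at these doses. At 3-methylfuran 0.02 mg/kg 0 of the 10 were called by the 3 tools, where edgeR called 0.0335% of all genes, and Nags alone had an unadjusted p under 0.05, as did 7.09% of all genes. Within furan the change came between 0.5 and 2.0 mg/kg: 8 genes were lower at 2.0 than at 0.5 mg/kg, where 32.2% of all genes were called, with Slc25a15 at -0.81 and Ass1 at -0.74 on the log2 scale. Ass1 had 970 to 1972 CPM at 2.0 mg/kg, against 2142 to 2681 CPM at 0.5 mg/kg, with no overlap, as for 2.04% of all genes. Between 3-methylfuran 1.0 and 0.075 mg/kg Otc was called (-0.38, adjusted p = 0.00036), where 34.9% of all genes were called.

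The rats at furan 2.0 mg/kg differed among themselves. Rats ME081_L, ME082_L, ME083_L, ME085_L and ME092_L had all 10 genes below the control mean, with a median log2 ratio to that mean between -0.38 and -0.69. Rat ME086_L had 5 of 10 below, with a median of 0.01, and rat ME089_L had 8 of 10 below, with a median of -0.07. These last rats also had the highest summed hepatocyte markers of their group, 196937 and 192268 CPM beside 127392 to 156428 CPM in the other 5. They had the lowest summed cholangiocyte markers, 60.7 and 59.0 CPM beside 84.5 to 135 CPM. The TMM factors of ME086_L and ME089_L were 1.0212 and 1.0796, beside 1.2004 to 1.4049 in the other 5. The ratios of the 10 genes and the hepatocyte marker sums are both divided by this factor. Part of their likeness across these rats is therefore built in, and how large a part was not tested. The part of cell makeup in the fall of the 10 genes was not tested. Leaving out ME086_L or ME089_L kept 8 genes called, and leaving out ME085_L gave 5, with Cps1, Arg1 and Slc25a15 lost. In rats at 3-methylfuran 1.0 mg/kg between 5 and 9 of the 10 genes lay below the control mean in each rat, with medians between -0.38 and -0.08.

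**Figure D3:**
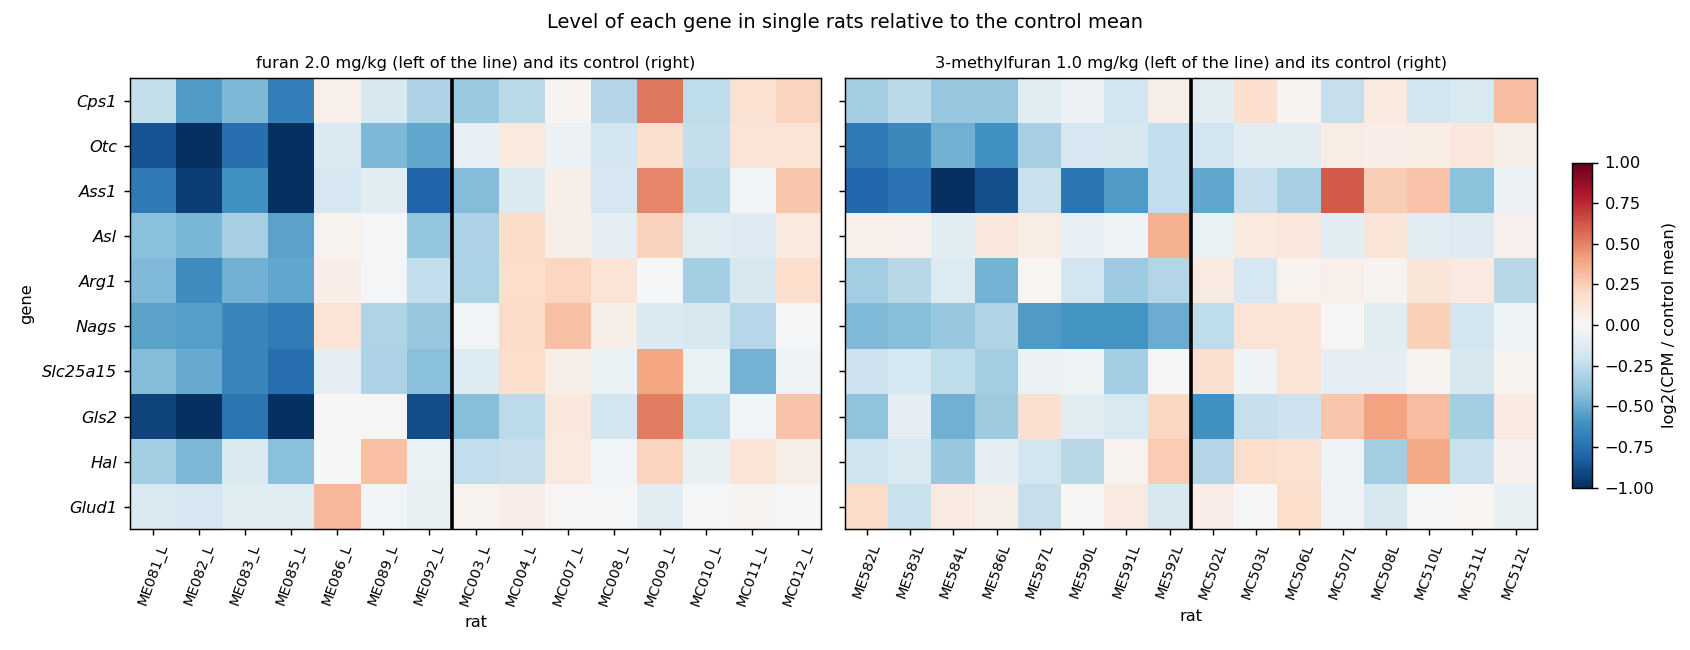
Log2 ratio of each gene's CPM to the control mean, with a column per rat, for the highest dose (left of each black line) and its control (right); blue is lower and red higher, with colours limited to -1 and 1. In the furan panel ME086_L and ME089_L are pale while the other 5 dosed rats are blue; in the 3-methylfuran panel the blue is strongest for Otc, Ass1 and Nags.

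Members of the set did not vary as 1 block between rats of the same group. After each rat was centred on its group mean, the Spearman correlation over 70 rats was 0.93 for Ass1 with Gls2, 0.70 for Cps1 with Gls2 and 0.68 for Cps1 with Ass1. It was -0.39 for Gls2 with Glud1 and 0.03 for Cps1 with Nags. The libraries were made with 2 kits, and these values are descriptions. Ass1 and Gls2 varied together between rats, and at 3-methylfuran 1.0 mg/kg Ass1 was called lower and Gls2 was not.

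**Figure D4:**
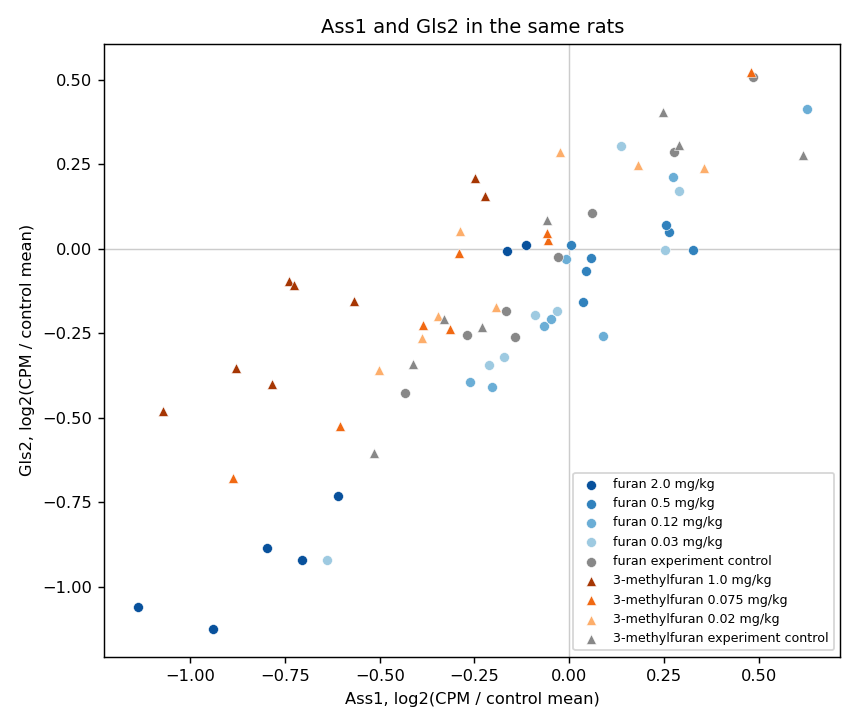
Gls2 against Ass1 in each of 70 rats, as log2 ratio of CPM to the control mean of the same experiment; circles are the furan experiment and triangles the 3-methylfuran experiment. Within a group the points run along a diagonal, and the 8 brown triangles of 3-methylfuran 1.0 mg/kg all lie left of 0 on the Ass1 axis, on both sides of 0 on the Gls2 axis.

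Over all 70 rats, each centred on its experiment's control mean, the gene most like each member was found among 6512 genes of at least 10 CPM, with no test. This centring leaves the differences between doses in the values, and both genes of a pair share the scaling of each rat. How far these raise rho was not tested. Cps1 was closest to Slc7a2, a carrier of cationic amino acids (Spearman rho 0.82), then to Aass (0.77) and Oat (0.77), enzymes of lysine and ornithine breakdown. Otc was closest to Mut (0.86), Agxt2 (0.85) and Pxmp2 (0.85). Ass1 was closest to Aspg (0.86), Gpt (0.84) and Bhmt2 (0.84). Asl was closest to Got1 (0.66), which makes the aspartate that Ass1 uses, then to RGD1305807 (0.65) and Fh (0.62), the fumarase that takes the fumarate Asl releases. Arg1 was closest to Cmbl (0.69), Nags to G0s2 (0.83), Slc25a15 to Rnf8 (0.71), Gls2 to Gldc (0.82), Hal to Mk1 (0.70) and Glud1 to Acss3 (0.64).

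Of the genes that supply the cycle with carbon, aspartate and amino acids, 9 of 19 tested were lower and 1 was higher at furan 2.0 mg/kg (median log2 fold change -0.25). In rats at 3-methylfuran 1.0 mg/kg 4 of 19 were lower and 3 higher (median -0.03). The called shares, 52.6% and 36.8%, lie near those of all genes, 46.5% and 43.6%. Gpt, the alanine aminotransferase, had 105 to 184 CPM at furan 2.0 mg/kg, against 182 to 276 CPM in controls (log2 fold change -0.77 ± 0.12, adjusted p = 3.4e-06). It had 62.5 to 116 CPM at 3-methylfuran 1.0 mg/kg, against 148 to 302 CPM in controls, with no overlap, as for 6.08% of all genes (-1.42 ± 0.14, adjusted p = 2.3e-09). Slc7a2 fell by 0.58 and 0.55 on the log2 scale, though its furan call was lost without rat MC009_L (adjusted p = 0.08) or ME085_L, while Slc25a13, the aspartate carrier called citrin, fell by 0.40 with furan and was not called with 3-methylfuran. Rhbg, an ammonium transporter of pericentral cells, rose by 1.41 with 3-methylfuran.

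Enzymes of amino acid breakdown, the source of most ammonia in hepatocytes, were mostly lower: 32 of 43 at furan 2.0 mg/kg (6 higher, median -0.45) and 30 of 43 at 3-methylfuran 1.0 mg/kg (6 higher, median -0.33), beside 22.5% of all genes called lower in each comparison. Sds, serine dehydratase, had 2.81 to 11.8 CPM (median 7.80) at furan 2.0 mg/kg, against 18.7 to 326 CPM (median 41.4) in controls. Its log2 fold change was -3.67 ± 0.74 (adjusted p = 0.00012), and -3.03 ± 0.68 (adjusted p = 0.00054) without MC009_L, the control rat at 326 CPM. Sds at 3-methylfuran 1.0 mg/kg had 0.811 to 11.8 CPM (median 2.86), against 1.68 to 27.5 CPM (median 7.56) in controls, and was not called. Oat, ornithine aminotransferase, which drains ornithine away from the cycle, had 71.98 to 200 CPM (median 107) at furan 2.0 mg/kg, against 167 to 540.7 CPM (median 283) in controls. In rats at 3-methylfuran 1.0 mg/kg it had 47.7 to 119 CPM (median 80.1), against 119 to 265 CPM (median 166) in controls. Its log2 fold changes were -1.23 ± 0.24 (adjusted p = 6.7e-05) and -1.15 ± 0.23 (adjusted p = 0.00019). The largest called changes of this list also included Dao (-1.27), Cdo1 (-0.85) and Cbs (-0.78) at 3-methylfuran 1.0 mg/kg. At furan 2.0 mg/kg they included Csad (-0.88) and Kynu (-0.82). The values of these genes with the other compound are not given here.

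Of other users of arginine and ornithine, 8 of 21 tested were higher and 4 lower at furan 2.0 mg/kg, and 6 of 20 were higher and 5 lower at 3-methylfuran 1.0 mg/kg. These are 57.1% and 55.0% of the list, beside 46.5% and 43.6% of all genes called in either direction. Odc1, ornithine decarboxylase, which opens polyamine synthesis, had 68.1 ± 10.1 CPM at furan 2.0 mg/kg, against 37.6 ± 3.24 CPM in controls (log2 fold change 0.86 ± 0.08, adjusted p = 1.2e-10). It rose by 0.54 ± 0.10 at 3-methylfuran 1.0 mg/kg (adjusted p = 4.9e-05). Pycr1, a proline-making reductase, rose by 1.39 and 1.4, and Ddah1, which degrades methylated arginine, by 0.79 and 0.80. Agmat fell by 0.56 with 3-methylfuran. Arg2, the second arginase, was below 1 CPM on average in the highest-dose and control groups and was not called.

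Glul, the glutamine synthetase of pericentral hepatocytes, had 348 to 522.1 CPM (median 434) at furan 2.0 mg/kg, against 350 to 798 CPM (median 593) in controls (log2 fold change -0.44 ± 0.16, adjusted p = 0.026). It had 244 to 463 CPM (median 320) at 3-methylfuran 1.0 mg/kg, against 314 to 597 CPM (median 425) in controls (-0.37 ± 0.14, adjusted p = 0.032). Leaving out 1 rat ended the call in 3 of 15 refits for furan (rats MC003_L, ME083_L and ME089_L) and in 5 of 16 for 3-methylfuran (MC502L, MC506L, ME583L, ME587L and ME590L), with adjusted p up to 0.07 and 0.09. Of 15 pericentral genes, 7 were lower and 1 higher with furan and 7 lower and 3 higher with 3-methylfuran. These are 53.3% and 66.7% of the list, beside 46.5% and 43.6% of all genes. The median log2 fold changes of this list were -0.35 and -0.32, and its member Cyp1a2 fell by 0.98 and 1.29. Of 17 other periportal genes, 13 and 11 were lower and 0 were higher, with medians of -0.58 and -0.34. These are 76.5% and 64.7% of the list, beside 22.5% of all genes called lower in each comparison. As chosen, this list shares Sds, Sdsl and Tat with the amino acid breakdown list and Slc7a2 with the supply list. Apoa4, an apolipoprotein, fell by 1.84 and 1.5 on the log2 scale, and G6pc, glucose-6-phosphatase, by 1.65 and 1.30.

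General hepatocyte markers, which have no part in nitrogen handling, were mostly lower too, beside 22.5% of all genes called lower in each comparison. Of these markers 13 of 14 were lower at furan 2.0 mg/kg and 11 of 14 at 3-methylfuran 1.0 mg/kg. Apoa1 was the 1 marker called higher in each. The median log2 fold changes of the markers were -0.54 and -0.26, beside -0.36 and -0.19 for the 10 nitrogen genes. The summed hepatocyte markers were 127392 to 196937 CPM at furan 2.0 mg/kg, against 214247 to 246227 CPM in controls, and 197215 to 255328 CPM at 3-methylfuran 1.0 mg/kg, against 243785 to 267209 CPM in controls. Summed cholangiocyte markers were 59.0 to 135 CPM at furan 2.0 mg/kg, against 48.1 to 60.9 CPM in controls, and 51.7 to 67.2 CPM at 3-methylfuran 1.0 mg/kg, against 39.3 to 48.3 CPM in controls. All 14 cholangiocyte markers had counts in each of these groups, but only 13 passed the filter on low counts with furan and 7 with 3-methylfuran. The median log2 fold change over those tested was 1.63 at furan 2.0 mg/kg and -0.04 at 3-methylfuran 1.0 mg/kg.

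**Figure D5:**
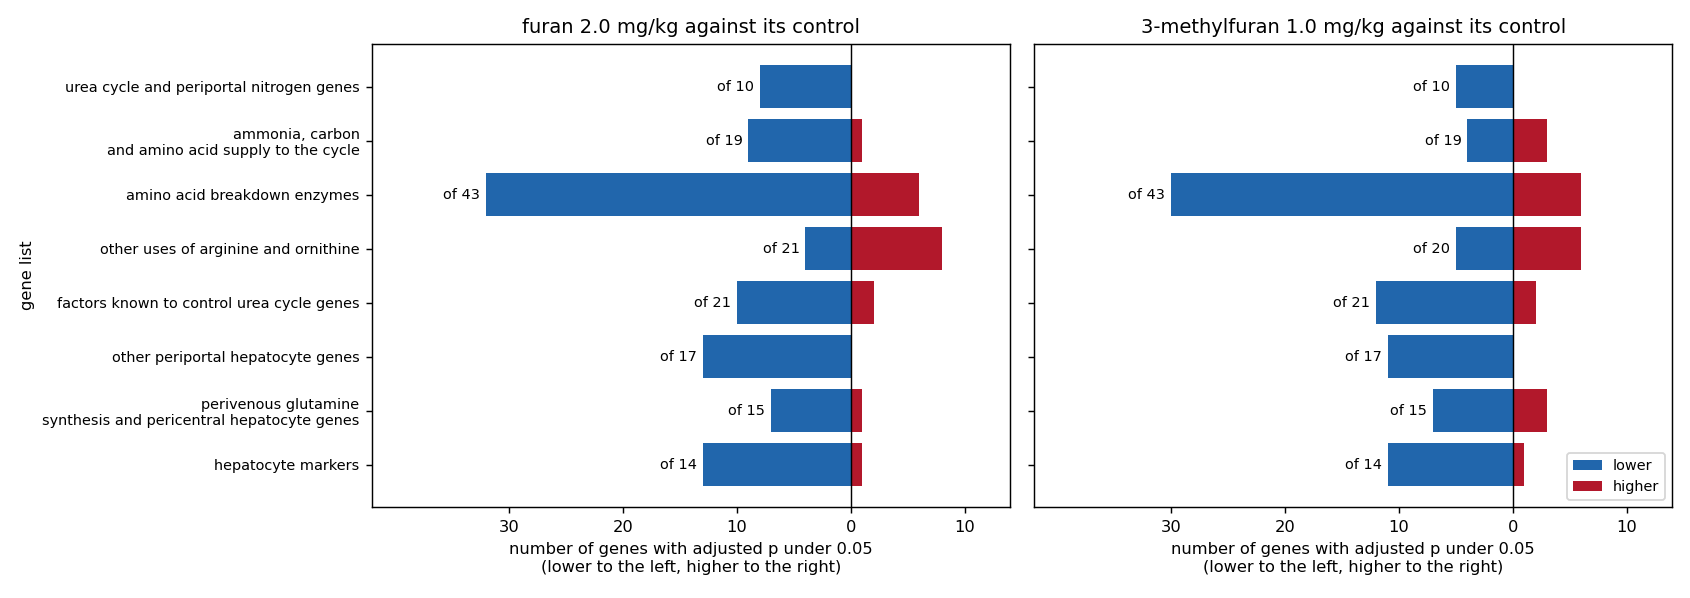
Number of genes called lower (blue, to the left) and higher (red, to the right) in each gene list at furan 2.0 mg/kg and 3-methylfuran 1.0 mg/kg against their controls; the number beside each bar is how many genes of the list were tested. The 10 urea cycle and periportal nitrogen genes, the other periportal genes and the hepatocyte markers have 0 or 1 gene in red in both panels. The supply list and the pericentral list each have 1 gene in red with furan and 3 with 3-methylfuran. The other uses of arginine and ornithine show 8 and 6 genes in red.

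Some factors known to control urea cycle genes were lower at both highest doses, 10 of 21 with furan and 12 of 21 with 3-methylfuran, with 2 higher in each, so that 57.1% and 66.7% of the list were called, beside 46.5% and 43.6% of all genes. Cebpa, a transcription factor that Cps1 and other cycle genes need, had 196 to 324 CPM (median 231) at furan 2.0 mg/kg, against 296 to 573 CPM (median 492.7) in controls (log2 fold change -0.97 ± 0.13, adjusted p = 1.0e-07). It had 152 to 222 CPM (median 179) at 3-methylfuran 1.0 mg/kg, against 222 to 329 CPM (median 283) in controls (-0.59 ± 0.10, adjusted p = 1.9e-05). Hnf4a, a central hepatocyte factor, fell by 0.49 and 0.41, and Gcgr, the glucagon receptor, by 0.65 and 0.69. Ppargc1a, a coactivator induced in fasting, rose by 1.18 and 0.78, in the direction opposite to the cycle genes. Fgf21, a fasting hormone, was higher with furan (12.8 ± 8.08 CPM, against 4.96 ± 2.58 CPM in controls) and lower with 3-methylfuran (6.66 ± 2.92 CPM, against 15.5 ± 4.63 CPM in controls).

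In the authors' deposited tables the same genes passed an adjusted p of 0.05: 8 of the 10 at furan 2.0 mg/kg, 5 at 3-methylfuran 1.0 mg/kg, Nags alone at 3-methylfuran 0.075 mg/kg, and 0 at the other doses.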

How the data were processed

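Liver RNA was extracted from frozen tissue and sequenced as mRNA, per the labels' protocols; 3-methylfuran libraries used the TruSeq Stranded mRNA protocol and furan libraries a later Stranded mRNA kit. Rnor 6.0, DESeq2 1.26.0, featureCounts 2.0.0 and STAR 2.7.1a appear in the submitters' processing notes; annotation release, strand and multimapping settings are not given in the sources used here. Read counts per gene and run were deposited unnormalized. For furan the authors deposited a signed fold change, a unit other than a plain ratio, and the authors' 3-methylfuran table gives a plain ratio or fold; both give the authors' adjusted p-values.

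Counts of the 172 runs were summed per rat, since runs of a rat differed little beyond counting noise (chi-square over degrees of freedom 1.0 to 1.07). The labels describe all controls alike; they were placed in an experiment by the title number, which matches each table's columns. Genes passed filterByExpr (minimum count 10), TMM scaled the libraries, and edgeR set every dose against its own experiment's controls (version 4.0.16, quasi-likelihood, R 4.3.3), 1 fit per experiment over all its groups, with Benjamini-Hochberg adjustment over all genes tested. The fit was tested on simulated data in which far fewer genes changed than were called at the highest doses, so the test does not check the scaling there. Alternatives were other scalings, DESeq2 1.42.0, limma 3.58.1 voom, no filter, run 1 alone, 2-group fits and leaving out each rat; the last was extended to other listed genes after seeing the data. All 10 genes were named in every comparison; from each list, up to 4 called genes with the largest change (mean of at least 1 CPM) and fixed reference genes. Uroc1, Amdhd1, Ftcd and Odc1 with 3-methylfuran were named after their values were seen. Of list symbols, Car5a and others absent from the tables by symbol were not analysed here. The members and gene lists were chosen with earlier results of these data known.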

Additional observations from a re-analysis of the deposited data

Results flagged for a closer look

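Of 90 sets of 1 gene in 1 group, 4 held a rat farther from its group than expected by Dixon's criterion; chance flags about 1 in 20. Nags had 113.1 CPM in rat ME086_L at furan 2.0 mg/kg, with the next rat at 83.3 CPM. Glud1 had 1507 CPM in the same rat, with the next at 1178 CPM. Asl had 299.7 CPM in rat ME592L at 3-methylfuran 1.0 mg/kg, with the next at 252.8 CPM. Hal had 139.3 CPM in rat MA531L at 3-methylfuran 0.02 mg/kg, with the next at 172.3 CPM. Of these 4, 2 flags fall on rat ME086_L.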

How the results depend on the processing

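The count of the 10 genes called lower at furan 2.0 mg/kg was 8, and 6 to 8 under the 7 other settings; leaving out 1 rat gave 5 to 8. At 3-methylfuran 1.0 mg/kg it was 5, with 4 to 5 when 1 rat was left out, and at furan 0.5 mg/kg it stayed at 0. Between 3-methylfuran 1.0 and 0.075 mg/kg the count was 1, but 2 with limma voom and 2 when only those groups were fitted; the cause was not tested. At furan 2.0 mg/kg Cps1 was no longer called under upper quartile scaling (adjusted p = 0.072), without the filter (0.071) or with only the 2 groups fitted (0.093), and Arg1 only in the last (0.062). Slc25a15 at 3-methylfuran 1.0 mg/kg was not called under upper quartile scaling, without the filter, with run 1 alone or with 2 groups (adjusted p 0.055 to 0.1). Nags at furan 2.0 against 0.5 mg/kg lost its call under upper quartile scaling, no filter and 2 groups (0.088 to 0.16). Glud1 turned sign without being called: at furan 2.0 mg/kg to 0.0189 under upper quartile scaling, with -0.11 to 0.00039 when 1 rat was left out; at 3-methylfuran 1.0 mg/kg to 0.0316 under upper quartile scaling and 0.0053 with run 1 alone, with -0.046 to 0.022 when 1 rat was left out. Of 1300 values of the 10 genes under alternatives, 32 changed sign, and 0 of these was of a called value. No paired analysis was possible because rat numbers are not shared between groups.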

Other observations

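At furan 0.12 and 0.5 mg/kg, where edgeR called 0 of the 10 cycle genes, it called 4 and 5 of 21 factors known to control them, 1 and 2 of 21 other users of arginine and ornithine, and 1 of 43 amino acid breakdown enzymes at each dose, beside 1.94% and 3.16% of all genes. Among the factors, Ppargc1a was higher than in controls by 1.14 and 1.01 on the log2 scale (adjusted p = 0.0083 and 0.018), Foxo1 was higher by 0.81 and 0.69 (0.004 and 0.015), and Nfe2l2 was lower, with log2 fold changes of -0.65 and -0.50 (0.0017 and 0.016). Tdo2, which opens tryptophan breakdown, was higher by 0.62 and 0.68 (0.021 and 0.011). Amd1, a polyamine enzyme, was higher by 0.44 and 0.45 (0.037 and 0.029), and Odc1 by 0.34 at 0.5 mg/kg (0.014). Cebpa had a log2 fold change of -0.44 at furan 0.5 mg/kg (adjusted p = 0.043) and of -0.49 at 3-methylfuran 0.075 mg/kg (adjusted p = 0.0075). Its mean was 280 CPM in the 3-methylfuran controls, 210 CPM at 0.02 mg/kg, where it was not called, and 199 CPM at 0.075 mg/kg. These genes were chosen after their values were seen.

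At furan 2.0 mg/kg 9 of 13 tested cholangiocyte markers were higher and 1 lower, and 6 of 13 stellate cell markers were higher and 2 lower, which are 76.9% and 61.5% called, beside 46.5% of all genes. Fewer were called of the other lists: 2 of 13 macrophage markers were higher, 3 of 10 endothelial markers were lower and 0 of 7 lymphocyte and neutrophil markers were called. Cd24 was higher by 2.83 ± 0.22 and Col1a1 by 3.09 ± 0.64 on the log2 scale. At 3-methylfuran 1.0 mg/kg 3 of 7 cholangiocyte markers were higher and 1 lower, 0 of 11 stellate cell markers were higher and 1 was lower, 0 of 12 macrophage markers were called, 1 of 10 endothelial markers was lower and 1 of 5 lymphocyte and neutrophil markers was higher, beside 43.6% of all genes called. Red blood cell markers were lower, 5 of 5 with furan and 3 of 5 with 3-methylfuran. How these cells bear on the cycle genes was not tested.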
